A study of Homo sapiens and Mus musculus with 19 samples.

Results

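The genes described here carry out the steps between the cutting of a protein in the cytosol and the loading of its peptides onto MHC class I molecules. They are the peptide transporter subunits TAP1 and TAP2, the loading factor TAPBP (tapasin), the immunoproteasome subunits PSMB8, PSMB9 and PSMB10, the proteasome activator subunits PSME1 and PSME2, and the aminopeptidases ERAP1 and ERAP2 that trim peptides in the endoplasmic reticulum. They were named as a list of 10 symbols, and a gene was measured through probe sets annotated to that symbol alone, and the probe set with the highest mean log2 signal in a species represents the gene. This gave 9 genes read by 22 probe sets among 19775 human genes, and 8 genes read by 14 probe sets among 18194 mouse genes. PSME2 has no value in either species, because its human probe set also names MIR7703 and its mouse probe set also names Psme2b. The list gives no mouse counterpart for ERAP2. All 9 human and all 8 mouse genes passed the filter on dim signals, which asked for a level above an array's 40th percentile on 5 or more human or 2 or more mouse arrays.

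The study asked how activating or blocking NF-kB changes gene expression in lung cancer cells, and holds 19 Affymetrix arrays. Of these, 15 came from human lung cancer (the 5 non-small cell lines A549, H23, H358, HCC827, PC9), with 1 array for each of 3 retroviral vectors in each line, and 4 came from mouse Lewis lung carcinoma cells (LLC, titled LLC-kB OVA, a term the labels do not explain), with 2 arrays for each of 2 vectors. The vector called IKKb expressed an activated IKKβ, the kinase that marks IkBα for destruction, with glutamate in place of both activating serines. The vector called IkB_SR expressed the IkBα super-repressor, in which alanine replaces the serines that IKK phosphorylates, and was used in the human lines only. The vector called MiG was the retrovirus without an insert. Every group, MiG included, was infected with the same retrovirus and sorted for GFP, and the labels give neither the number of separate infections nor the time between infection and RNA extraction.

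In most cells the proteasome core carries the constitutive catalytic subunits, and cells exposed to interferon gamma replace them with PSMB8, PSMB9 and PSMB10, which changes the peptides that are made. PSME1 and PSME2 form a ring that opens the core, TAP1 and TAP2 form the pump that moves peptides into the endoplasmic reticulum, and TAPBP holds an empty class I molecule at that pump. These genes are known as targets of interferon signalling, and NF-kB subunits are known to act on the promoters of several of them.

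Promoter windows of all 10 genes were found in the RefSeq table of GRCh38.p14, 14 windows from 250 bases before to 50 bases after an annotated start. Both strands were searched for the core of the interferon-stimulated response element (ISRE), GAAANNGAAA, for a loose NF-kB pattern, GGGNNNNNCC, for the interferon gamma activated pattern TTCNNNGAA, and, chosen after the data were seen, for the kB consensus by its name, which is a stricter form of the loose pattern and overlaps it. An ISRE core lay in a window of 9 of the 10 genes, against 3.6% of all 35116 windows in the table. A kB consensus match lay in a window of 3 genes (TAP1, TAPBP and ERAP1), against 5.9% of all windows. The loose NF-kB pattern lay in 6 of the genes, against 58.7% of all windows, and the TTCNNNGAA pattern in TAP1 and PSMB8, against 7.7%. A gene with several windows had more chances of a match than a single window, and a match describes letters only.

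TAP1 and TAPBP hold both an ISRE core and a kB consensus match before the start. PSMB9, the gene with the highest fold change below, holds no match to any of the 4 searches within its window. The 250 bases before the start are shown for TAP1, TAPBP and PSMB9. They are read 5' to 3' in the direction of the gene, from chr6:32853705-32853954 (minus strand) for TAP1, chr6:33314079-33314328 (minus strand) for TAPBP and chr6:32853942-32854191 (plus strand) for PSMB9. Capitals mark the ISRE core, on either strand, and the kB consensus.
TAP1: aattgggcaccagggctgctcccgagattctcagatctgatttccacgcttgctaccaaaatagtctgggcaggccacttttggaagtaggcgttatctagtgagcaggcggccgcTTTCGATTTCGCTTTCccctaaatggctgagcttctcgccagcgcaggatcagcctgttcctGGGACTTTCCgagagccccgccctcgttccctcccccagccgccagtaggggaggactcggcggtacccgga
TAPBP: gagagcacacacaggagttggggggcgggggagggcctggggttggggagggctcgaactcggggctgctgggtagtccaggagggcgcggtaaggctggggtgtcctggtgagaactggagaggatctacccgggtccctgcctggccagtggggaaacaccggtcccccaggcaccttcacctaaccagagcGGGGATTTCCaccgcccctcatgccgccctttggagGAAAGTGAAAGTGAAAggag
PSMB9: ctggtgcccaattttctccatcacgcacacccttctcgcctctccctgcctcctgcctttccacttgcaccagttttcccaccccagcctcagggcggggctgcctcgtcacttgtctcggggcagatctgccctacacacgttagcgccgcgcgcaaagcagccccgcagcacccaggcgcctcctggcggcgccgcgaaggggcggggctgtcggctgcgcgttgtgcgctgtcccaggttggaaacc

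In TAP1 the ISRE cores overlap and fill positions -134 to -119 from the start, and the kB match fills -72 to -63. A further kB consensus match in TAP1 lies after the start, at 23 to 32, outside the printed stretch. In TAPBP the kB match fills -56 to -47 and overlapping ISRE cores fill -20 to -5. TAP1 and PSMB9 are neighbours transcribed away from each other, so the far ends of their windows overlap. The marked TAP1 matches before its start therefore also lie before the PSMB9 start, beyond the PSMB9 window.

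For the other 7 genes the 30 bases around the ISRE core are shown, again in the direction of the gene and with the core in capitals, so that its orientation and its flanks can be seen. The search itself fixed all letters of the core but the middle pair. They come from chr6:32838778-32838807 (minus strand) for TAP2, chr6:32844032-32844061 (minus strand) for PSMB8, chr16:67936852-67936881 (minus strand) for PSMB10, chr14:24136189-24136218 (plus strand) for PSME1, chr14:24146619-24146648 (minus strand) for PSME2, chr5:96807924-96807953 (minus strand) for ERAP1 and chr5:96876460-96876489 (plus strand) for ERAP2.
TAP2: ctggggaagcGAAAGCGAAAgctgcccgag
PSMB8: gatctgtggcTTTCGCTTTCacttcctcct
PSMB10: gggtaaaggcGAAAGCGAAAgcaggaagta
PSME1: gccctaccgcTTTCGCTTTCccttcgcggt
PSME2: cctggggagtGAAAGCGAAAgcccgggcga
ERAP1: cgggctccacTTTCACTTTCggtcctgggg
ERAP2: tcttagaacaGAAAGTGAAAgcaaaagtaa

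The core lies before the start in TAP2 (-58 to -49), PSMB10 (-21 to -12), PSME2 (-28 to -19) and ERAP2 (-30 to -21). It spans the start in PSMB8 (-4 to 6) and lies after it in PSME1 (6 to 15) and ERAP1 (3 to 12). Positions are counted from the annotated start of the window that holds the core. For PSMB8, ERAP1 and ERAP2 that start lies inside the gene bounds given next, and another window of each holds no core. In GRCh38.p14, TAP2 (32821831 to 32838739), PSMB8 (32840717 to 32844679), TAP1 (32845209 to 32853704) and PSMB9 (32854192 to 32859851) lie side by side in the MHC region of chromosome 6, and TAPBP (33299694 to 33314078) lies on the same chromosome. PSME1 (24136194 to 24138962) and PSME2 (24143365 to 24146610) are neighbours on chromosome 14, and ERAP1 (96760813 to 96935854) and ERAP2 (96875984 to 96919716) overlap on chromosome 5. PSMB10 lies alone on chromosome 16 (67934506 to 67936850).

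Signals are MAS5 intensities on a linear scale, scaled by the authors to a common mean per array, and their medians were 51.3 to 76.5 on the human and 55.0 to 64.4 on the LLC arrays. NFKBIA, which encodes IkBα, exceeded its MiG signal in 4 of the 5 IkB_SR arrays (1.60-fold to 7.08-fold). In the array labelled H23 IkB_SR its ratio to MiG was 0.782. The NFKBIA signals with IkB_SR were 7343, 7292, 8963, 14578 and 7167 in A549, H23, H358, HCC827 and PC9. With MiG its signal was highest in H23 (9329). NFKBIA was also above MiG on all 5 IKKb arrays, by 1.07-fold to 3.91-fold, and in H358 the IKKb (3.91-fold) and IkB_SR (4.07-fold) ratios were close, so there it does not tell these vectors apart. The brightest IKBKB probe set did not follow the IKKb vector, with ratios to MiG of 0.794 to 1.03. The H358 IKKb array stood apart within its line in its Dap spike-in signal (4376, against 1103 with IkB_SR and 1128 with MiG in H358). Its actin 3' to 5' ratio stood apart from the other 14 human arrays (1.74, against 1.03 to 1.41), so calls that include this array are also given without it. The Dap signals of those 14 arrays spanned 153.9 to 4354, and PC9 also differed within the line (2376 with MiG, 4047 with IkB_SR and 4354 with IKKb). In LLC the Dap signal was 1567 (IKKb) and 1679 (MiG) on the arrays numbered 1, against 19.4 (IKKb) and 28.7 (MiG) on those numbered 2. The epithelial keratins KRT8 (at least 12135) and KRT18 (at least 16555) were bright on all 15 human arrays. EPCAM (at least 246.75) and CDH1 (at least 1517.5) were above the 40th percentile on all 15. KRT19 (lowest 2.15) was above it on 12 of 15 and KRT7 (lowest 33.0) on 14 of 15. In LLC, Krt8 was at least 4554 and Krt18 at least 4664, but Cdh1 was above the 40th percentile on 0 of 4 arrays.

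With IKKb against IkB_SR, 6 of the 9 human genes rose past an adjusted p of 0.05 (limma, cell line as a block, Benjamini-Hochberg adjustment over 15212 genes, n = 5 lines), namely TAP1, TAP2, TAPBP, PSMB9, ERAP1 and ERAP2. Over all genes tested, 0.933% passed in either direction and 0.611% passed as higher. The fold changes of the 6 genes ran between 1.59-fold and 3.35-fold, and each was higher in all 5 lines, as were 4.51% of all genes. These counts include dim signals, and ERAP2 gives no usable ratio in H23, where its IkB_SR signal lay below the 40th percentile. For PSMB9 the ratio in H358 was only 1.02. PSMB8 (adjusted p = 0.0518), PSME1 (adjusted p = 0.114) and PSMB10 (adjusted p = 0.900) did not pass. The median log2 fold change was 0.93 over the 9 genes and -0.01 over all genes. Without H23, HCC827 or PC9 the count was 2 of 9 in each case, TAP2 and TAPBP. Without H358 it was 7, and without the H358 IKKb array alone it was also 7, PSMB8 being added both times. All log2 fold changes are of the signal plus 16 and carry the standard error of the fit, and values by line are given in the order A549, H23, H358, HCC827 and PC9.

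**Figure D1:**
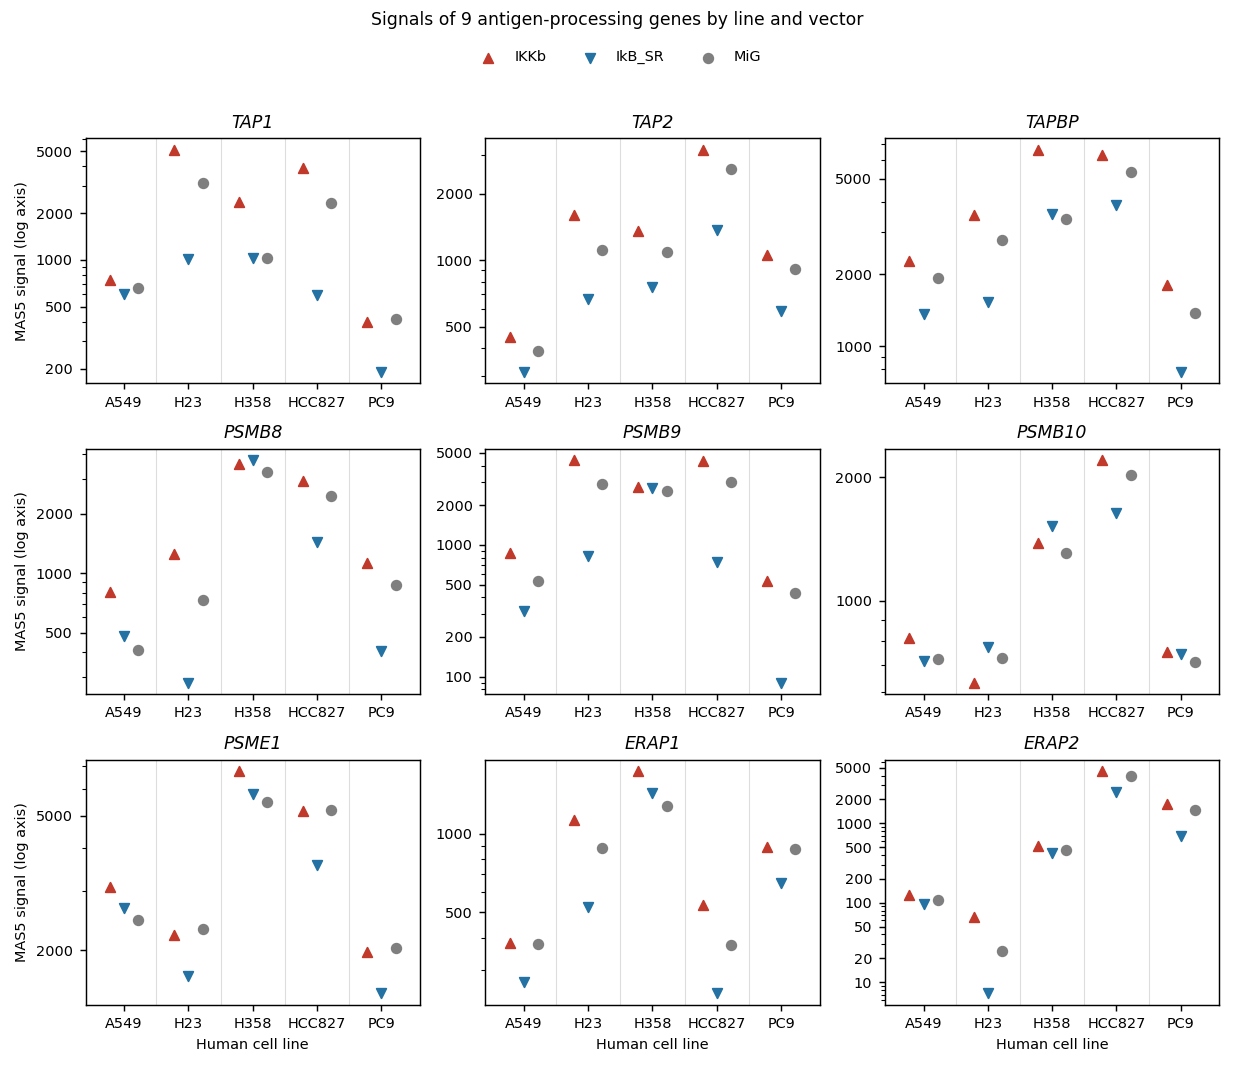
MAS5 signal on a log axis of each of the 9 human genes in the 5 lines, with 1 array per point, IKKb as upward triangles, IkB_SR as downward triangles and MiG as circles. TAP2 keeps the order IkB_SR, MiG, IKKb in all 5 lines, PSMB9 and PSMB8 lie close together across vectors in H358, and PSMB10 lies close together in all lines.

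TAP1, which pairs with TAP2 to make the transporter, had signals of 739.5, 5134, 2368, 3932 and 398 with IKKb, of 602, 1021, 1025, 597 and 191 with IkB_SR, and of 659.7, 3108, 1029.8, 2334 and 420.0 with MiG. The IKKb array was above the IkB_SR array in every line, by 1.23-fold in A549 and by 6.59-fold in HCC827, while IkB_SR and MiG nearly coincided in H358. TAP1 rose 2.82-fold over IkB_SR, a log2 fold change of 1.498 ± 0.281 (adjusted p = 0.0277). Leaving out 1 line ended the call for H23 (adjusted p = 0.122), HCC827 (0.134) and PC9 (0.0871). Without the H358 IKKb array it was 1.46 (adjusted p = 0.0498).

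TAP2, the other subunit of the transporter, gave ratios within a narrower range. Its signals were 450.1, 1607, 1357, 3166 and 1059.7 with IKKb, 312, 669, 754, 1372 and 589 with IkB_SR, and 389, 1115, 1088, 2587 and 913 with MiG. In all 5 lines IkB_SR was lowest, MiG lay between and IKKb was highest, with IKKb at 1.44 to 2.40 times IkB_SR. TAP2 rose 1.89-fold over IkB_SR (log2 0.92 ± 0.10), and its adjusted p of 0.000834 was the smallest of the 9 genes. With any 1 line left out it stayed between 0.84 and 1.03 (adjusted p at most 0.0174), and without the H358 IKKb array it was 0.93 (adjusted p = 0.00178). The next brightest TAP2 probe set gave 0.69 ± 0.18 and a dim one 0.80 ± 0.31, while the fourth was too dim to test.

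TAPBP, which bridges the transporter and the class I molecule, had signals of 2264, 3546, 6623, 6281 and 1807 with IKKb, 1356, 1525, 3570.0, 3879.7 and 780.4 with IkB_SR, and 1924, 2776, 3380.0, 5325 and 1377 with MiG. IKKb was highest in every line, and IkB_SR was below MiG everywhere but in H358. The ratio of IKKb to IkB_SR lay within a narrow band, 1.62 to 2.33, and the log2 fold change was 0.94 ± 0.12, 1.92-fold (adjusted p = 0.00211). With any 1 line left out it lay between 0.88 and 1.01 (adjusted p at most 0.0286), and without the H358 IKKb array it was 0.88 (adjusted p = 0.00496).

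ERAP1 and ERAP2 cut extra residues from the front end of peptides so that they fit the class I groove. ERAP1 signals were 382, 1132, 1739, 532 and 892 with IKKb, 272, 524, 1441, 245 and 649.7 with IkB_SR, and 379, 880.2, 1274, 376 and 878 with MiG. IKKb exceeded IkB_SR by 1.21-fold in H358 to 2.18-fold in HCC827, and the log2 fold change was 0.67 ± 0.13, 1.59-fold (adjusted p = 0.0337). Without A549, H23, HCC827 or PC9 the adjusted p was 0.0570 to 0.178, without H358 it was 0.0171 and without the H358 IKKb array alone 0.0488. With the mean of all ERAP1 probe sets it was 0.295 at a log2 fold change of 0.36. ERAP1 was also the gene whose probe sets were least alike, at -0.07, 0.41, 0.67 and 0.90 in log2 fold change.

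ERAP2 differed more between lines than between vectors, with signals of 126, 65.9, 527, 4535 and 1747 with IKKb, 98.0, 7.24, 419, 2451 and 687 with IkB_SR, and 107, 24.7, 462, 3969 and 1487 with MiG. The IKKb signal in HCC827 was 68.8 times that in H23, where the IkB_SR and MiG signals fell short of the 40th percentile and so give no usable ratio. In the other 4 lines IKKb stood at 1.26 to 2.54 times IkB_SR. ERAP2 rose 1.91-fold, with a log2 fold change of 0.93 ± 0.19 (adjusted p = 0.0369), against 0.71 without H23 (adjusted p = 0.108). Without HCC827 or PC9 the adjusted p was 0.177 or 0.187. With a pseudocount of 1, which widens differences between dim signals, it was 1.19 (adjusted p = 0.0906). Without the H358 IKKb array it was 1.03 (adjusted p = 0.0295).

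Among the immunoproteasome subunits, PSMB9 had the highest fold change of the 9 genes. Its signals were 868, 4379, 2750.3, 4323 and 533 with IKKb, 314, 829, 2708, 736 and 90.0 with IkB_SR, and 536, 2881, 2563, 3025 and 431 with MiG. IKKb stood at 2.76 to 5.92 times IkB_SR in A549, H23, HCC827 and PC9, but at 1.02 times in H358. PSMB9 rose 3.35-fold, with a log2 fold change of 1.74 ± 0.29 (adjusted p = 0.0132). It was 2.17 without H358 (adjusted p = 0.000187), 2.002 without the H358 IKKb array alone, and its adjusted p was 0.0781 to 0.0884 without H23, HCC827 or PC9.

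PSMB8, whose product also cuts proteins inside the core, did not pass the test. Its signals were 808, 1254, 3565, 2935 and 1122 with IKKb, 485, 281, 3718, 1435 and 408 with IkB_SR, and 412, 737, 3247, 2472 and 872 with MiG. IKKb was above IkB_SR in 4 lines, by 4.47-fold in H23, and slightly below it in H358, where its ratio was 0.959. Its log2 fold change was 1.04 ± 0.23, 2.06-fold (adjusted p = 0.0518), and 1.32 without H358 (adjusted p = 0.0139). H358 was the brightest line for PSMB8 with all 3 vectors. For PSMB9 it was the brightest with IkB_SR (2708). With MiG its PSMB9 signal (2563) lay below those of H23 (2881) and HCC827 (3025). This describes 1 array per line and vector.

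PSMB10, the remaining catalytic subunit of the immunoproteasome, lay close together across vectors. Its signals were 814, 633, 1387, 2197 and 749.8 with IKKb, 716, 773, 1522, 1634 and 744 with IkB_SR, and 723, 725, 1306, 2021 and 709 with MiG. IKKb was above IkB_SR in A549, HCC827 and PC9 and below it in H23 and H358. The log2 fold change was 0.04 ± 0.10 (adjusted p = 0.900), with a 95% interval of -0.17 to 0.25. PSME1, which builds the activator ring, ranged over 1969 to 6767 with IKKb, 1489.5 to 5792 with IkB_SR and 2032 to 5498 with MiG. IKKb was above IkB_SR in all 5 lines, by 1.15-fold to 1.44-fold, and the log2 fold change of 0.35 ± 0.10 (1.28-fold) did not pass the test (adjusted p = 0.114).

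**Figure D2:**
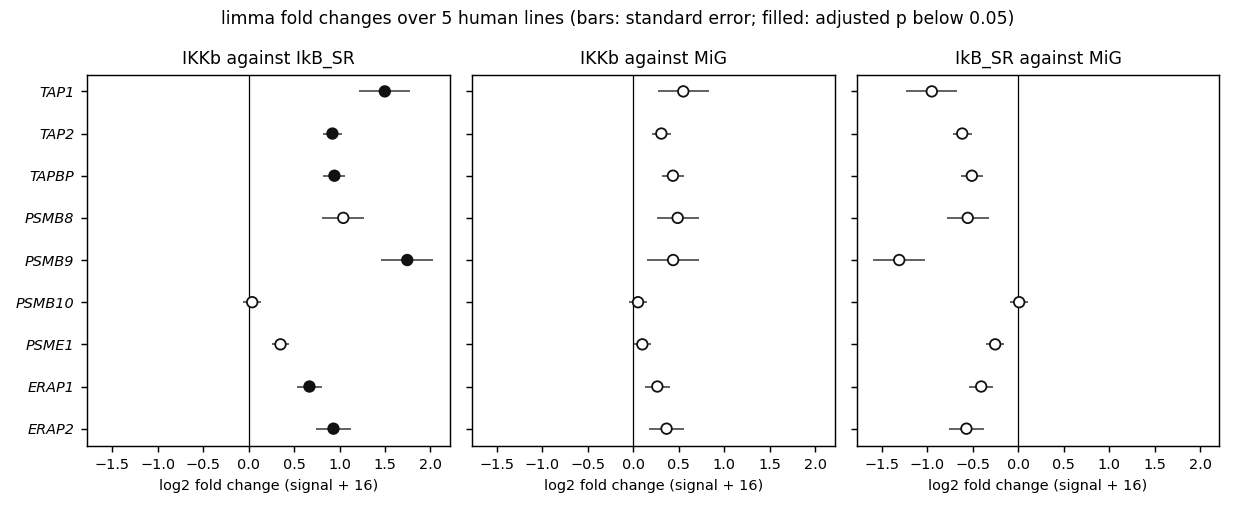
log2 fold changes of the 9 genes in the limma fit over the 5 human lines for IKKb against IkB_SR, IKKb against MiG and IkB_SR against MiG, with bars of 1 standard error and filled points where the adjusted p was below 0.05. The 6 filled points all lie in the IKKb against IkB_SR panel, and PSMB10 lies next to 0 in all 3 panels.

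Each of the other vectors was also compared with MiG, using the same arrays, so the contrasts share samples and their values are given side by side without a test between them. With IKKb against MiG, 0 of 15212 genes passed in limma, against 839 at an unadjusted p below 0.05 (5.52%, with 2.37% higher), among them 2 of the 9 genes, both higher. TAP2 was higher with IKKb in all 5 lines, by 1.16-fold to 1.44-fold (log2 0.31 ± 0.10, unadjusted p = 0.0101, adjusted p = 0.878). TAPBP was likewise higher in all 5, by 1.18-fold to 1.96-fold (log2 0.44 ± 0.12, unadjusted p = 0.00276, adjusted p = 0.878). So were PSMB8 (0.49 ± 0.23), PSMB9 (0.44 ± 0.29) and ERAP1 (0.26 ± 0.13). ERAP2 (0.37 ± 0.19) was too, but its H23 MiG signal lay below the 40th percentile, so that line gives no usable ratio. Being higher in all 5 lines held for 3.29% of all genes. TAP1 (0.55 ± 0.28) was below MiG in PC9 alone, at a ratio of 0.948. PSMB10 (0.05 ± 0.10) was lower than MiG in H23, and PSME1 (0.10 ± 0.10) was lower in H23, HCC827 and PC9. The median over the 9 genes was 0.37. H358 had the highest TAP1 value of the 5 lines. Without the H358 IKKb array TAP1 lay at 0.51, TAPBP at 0.38, PSMB8 at 0.67 and PSMB9 at 0.70, and without all H358 arrays they lay at 0.39, 0.30, 0.58 and 0.52.

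With IkB_SR against MiG, again 0 of 15212 genes passed in limma, against 675 at an unadjusted p below 0.05 (4.44%, with 2.19% lower), and 8 of the 9 genes were among those, all below 0. The values were -1.31 ± 0.29 for PSMB9 (adjusted p = 0.726) and -0.95 ± 0.28 for TAP1 (adjusted p = 0.995). TAP2 lay at -0.61 ± 0.10 (adjusted p = 0.563), ERAP2 at -0.57 ± 0.19 and PSMB8 at -0.55 ± 0.23. TAPBP lay at -0.51 ± 0.12, ERAP1 at -0.41 ± 0.13, PSME1 at -0.25 ± 0.10 and PSMB10 at 0.01 ± 0.10. TAP1 and TAP2 were below MiG in all 5 lines, as were 3.71% of all genes. ERAP2 was below MiG in the 4 lines with usable signals. H358 was the line in which 6 of the 9 genes were above MiG with IkB_SR. Without H358, 8 genes of the whole table passed, TAPBP (-0.65, adjusted p = 0.0283) and PSMB9 (-1.65, adjusted p = 0.00396) among them. Against MiG, the array labelled H23 IkB_SR had a median of -0.81 over the 9 genes, beside -0.81 in PC9 and -0.69 in HCC827. Its NFKBIA signal was below that of MiG in H23.

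The full order of IkB_SR lowest, MiG between and IKKb highest held in all 5 lines for TAP2, against 0.243% of all genes, where dim signals were ranked too. ERAP2 had this order in the 4 lines with usable signals, and in H23 its IkB_SR and MiG signals were both too dim to rank. The order held in 4 lines for TAP1, TAPBP, PSMB9 and ERAP1, in 3 for PSMB8, in 2 for PSMB10 and in 0 for PSME1. The exceptions of TAPBP, PSMB9 and ERAP1 were all in H358, where IkB_SR was at 1.06, 1.06 and 1.13 times MiG, and that of TAP1 was in PC9.

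Levels under a given vector also differed widely between lines. With IKKb the brightest line was at 12.9 times the dimmest for TAP1, 8.22 times for PSMB9 and 7.03 times for TAP2, against 3.44 times for PSME1 and 3.47 times for PSMB10. With IkB_SR the span of PSMB9 was 30.1 times, between 2708 in H358 and 90.0 in PC9, and that of PSMB8 was 13.2 times. HCC827 was the brightest line for TAP2, PSMB10 and ERAP2 with all 3 vectors, and PC9 was the dimmest for TAP1, TAPBP, PSMB9 and PSME1 with all 3. With 1 array per line and vector, these differences between lines have no replicate check.

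Of the 22 human probe sets of these genes, 19 passed the filter on dim signals, and 18 of the 19 had a log2 fold change above 0 between IKKb and IkB_SR (median 0.69). When all probe sets were tested separately, 6 of the 19 passed, each of them the brightest of its gene. The share over all probe sets in that fit is not given here. In the fit by gene, 46.9% of all genes lay above 0 and 0.611% passed as higher. The probe sets of TAPBP gave 0.94, 0.52 and 0.78 and those of ERAP2 gave 0.93, 0.57, 0.60 and 0.46, from the brighter to the dimmer. TAP1, PSMB8, PSMB9, PSMB10 and PSME1 were each read by a single probe set that passed.

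**Figure D3:**
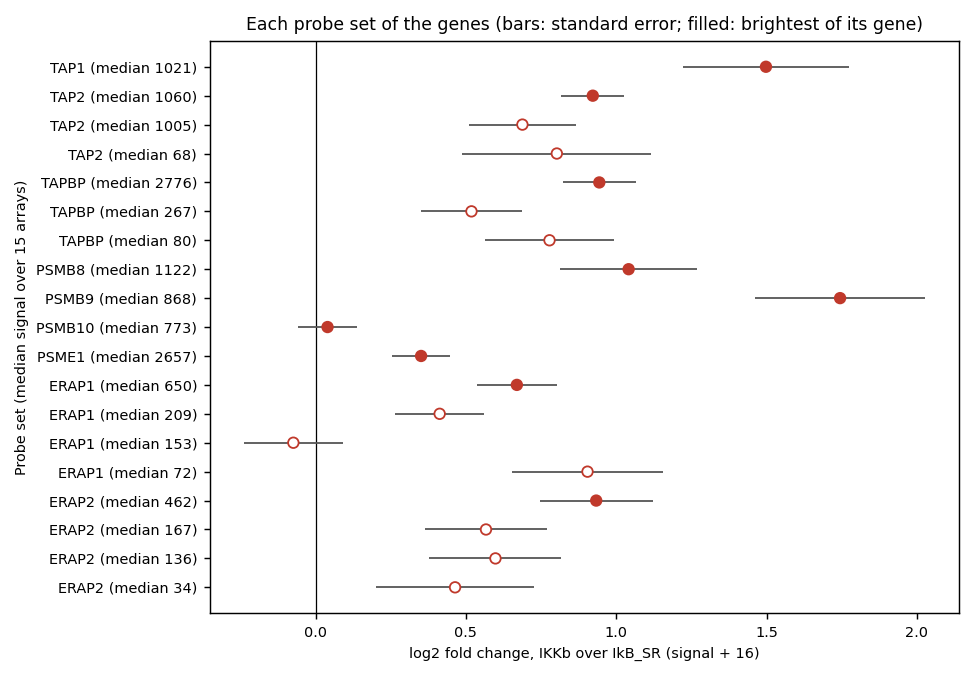
log2 fold change of IKKb over IkB_SR for each of the 19 probe sets that passed the filter, with bars of 1 standard error, the median signal of the probe set in its row label and the brightest of each gene filled. All lie above 0 except one ERAP1 probe set at -0.07.

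The line-centred log2 signals, each value less the mean of its line, described how the genes moved together over the 15 arrays, which share lines and scaling. Among the 8 genes other than PSMB10 the Pearson correlations ran between 0.79 and 0.95, and PSMB10 had -0.08 to 0.33 with them. Over all tested genes, the 5 most like TAP1 were PARP12 (0.971), ERAP1 (0.947), MLKL (0.944), TAP2 (0.940) and NFKB1 (0.935). The 5 most like PSMB9 were NOCT (0.952), NT5E (0.939), RASSF3 (0.937), KLF4 (0.928) and MLKL (0.927).

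The constitutive proteasome genes, which make up the standard particle, lay near 0 over the 5 lines but not in H358. Between IKKb and IkB_SR, 14.2% of all genes had an unadjusted p below 0.05 in limma. Of the 13 tested genes of the constitutive 20S core, 0 passed in this comparison, with 3 at an unadjusted p below 0.05. Their log2 fold changes ran between 0.02 and 0.22 around a median of 0.08, with PSMB7, the constitutive counterpart of PSMB10, at 0.22 ± 0.09 (adjusted p = 0.282). None of the 14 tested genes of the 19S regulator, which recognises tagged proteins, passed (0 at an unadjusted p below 0.05, median 0.09), PSMC2 being at 0.20 (adjusted p = 0.429). The 8 other activators, inhibitors and assembly factors had 0 passing and 2 at an unadjusted p below 0.05 (median 0.11, PSMG4 at 0.24 ± 0.09, adjusted p = 0.240). The 6 other peptidases had 0 passing and 1 at an unadjusted p below 0.05 (median 0.14, THOP1 at 0.34 ± 0.14, adjusted p = 0.287). In H358, 13 of 13 core genes were higher with IKKb than with IkB_SR (median 0.31). So were 13 of 14 of the 19S regulator (median 0.33) and 7 of the 8 other factors (median 0.41). In PC9, 13 of 13 core genes (median 0.08) and 14 of 14 of the 19S regulator (median 0.14) were also higher, by smaller amounts. The 9 antigen-processing genes had a median of 0.27 in H358, below the medians of these lists there, and of 1.004 in PC9.

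Among the 10 tested partners of the loading complex and class I chains, HLA-B (0.60 ± 0.12, 1.52-fold, adjusted p = 0.0337) and HLA-C (0.48 ± 0.09, 1.39-fold, adjusted p = 0.0327) rose and 0 fell, with a median of 0.41. Without the H358 IKKb array, a setting chosen for these lists after the data were seen, neither passed (HLA-B 0.56, adjusted p = 0.0691, and HLA-C 0.43, adjusted p = 0.0584). Their probe sets are of the type that can cross-hybridise with related HLA genes, so the split between these genes is uncertain. Of the 11 tested transcription factors of class I genes, 4 rose and 0 fell. These were RELB (2.16 ± 0.23, 4.47-fold, adjusted p = 0.000790), NFKB1 (0.85 ± 0.10, adjusted p = 0.00143) and NFKB2 (1.70 ± 0.21, adjusted p = 0.00160), all NF-kB subunits, and IRF1 (0.70 ± 0.13, adjusted p = 0.0277), which binds the ISRE. All 4 also passed without the H358 IKKb array (adjusted p at most 0.0366). Against MiG, 0 genes of any of these lists passed in limma in either contrast. RELB had the smallest unadjusted p of its list in both, at 1.07 ± 0.23 with IKKb (adjusted p = 0.619) and -1.09 ± 0.23 with IkB_SR (adjusted p = 0.726). In the other lists the gene with the smallest p was, for IKKb over MiG, PSMA1 (0.14), PSMD12 (0.12), PSME4 (-0.10), HLA-C (0.24) and TPP2 (-0.16). For IkB_SR over MiG it was PSMB2 (-0.05), PSMD3 (-0.11), PSMG4 (-0.19), HLA-B (-0.33) and THOP1 (-0.28).

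Interferon-stimulated genes, many of which carry an ISRE, are set beside the 9 genes line by line. Of 22 tested, GBP1, a guanylate-binding protein, rose (1.38 ± 0.27, 2.60-fold, adjusted p = 0.0327) and 0 fell, with a median of 0.79 over the list. Without the H358 IKKb array GBP1 was at 1.60 (adjusted p = 0.0111). The median over the list came largely from 1 line, since the per-line medians of IKKb minus IkB_SR were 0.30, 0.29, -0.33, 2.83 and 0.26. The corresponding medians of the 9 antigen-processing genes were 0.47, 1.24, 0.27, 1.02 and 1.004, and those of the 20S core were 0.01, -0.07, 0.31, 0.03 and 0.08. Against MiG, the interferon-stimulated genes in HCC827 lay at 0.25 with IKKb and at -2.54 with IkB_SR. In H23 and PC9, where the 9 genes lay at -0.81 and -0.81 with IkB_SR against MiG, the interferon-stimulated genes lay at 0.01 and -0.37. Their smallest p against MiG was that of GBP1 with IKKb (0.73 ± 0.27) and of IFIH1 with IkB_SR (-0.98 ± 0.35). The part of this shift in the result was not tested.

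**Figure D4:**
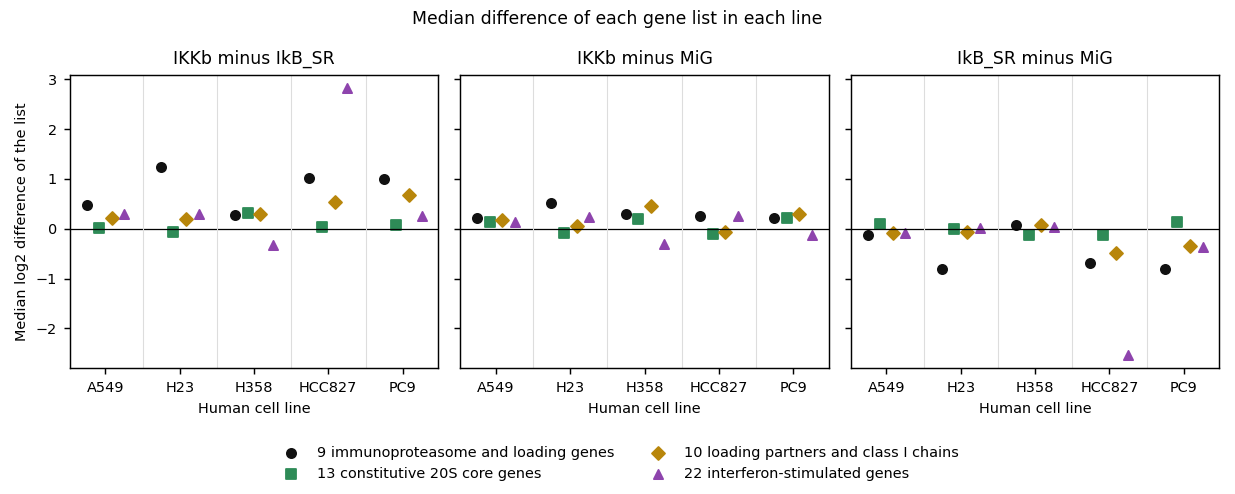
Median log2 difference in each human line of the 9 immunoproteasome and loading genes (black circles), 13 constitutive 20S core genes (green squares), 10 loading partners and class I chains (gold diamonds) and 22 interferon-stimulated genes (purple triangles), for the 3 differences between vectors. Between IKKb and IkB_SR the interferon-stimulated genes reach 2.83 in HCC827 and -0.33 in H358, while the 9 genes lie between 0.27 and 1.24.

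Markers of other cell types were summed beside these results. Over the 10 measured leukocyte markers the summed signal ranged over 551 to 13923 with IKKb, 577 to 3542 with IkB_SR and 644 to 6112 with MiG. CD74 reached 11692 and LCP1 reached 4549, while PTPRC, which defines leukocytes, stayed at or below 37.3 and was above the 40th percentile on 1 of 15 arrays. Of the 6 leukocyte markers tested, ITGAM rose between IKKb and IkB_SR (1.72 ± 0.34, adjusted p = 0.0327) and 0 fell, with a median of 0.24. Of the 6, 4 had an unadjusted p below 0.05, against 14.2% of all genes. Of these 4, 3 were higher (ITGAM, LCP1 and CD74) and 1 was lower, CD14 at -1.04 ± 0.32 (unadjusted p = 0.00625, adjusted p = 0.164, lower in 5 of 5 lines). Without the H358 IKKb array ITGAM was at 1.77 (adjusted p = 0.0488). Fibroblast and endothelial markers summed to 938 to 1114 with IKKb, 948 to 1870 with IkB_SR and 1064 to 1762 with MiG, and 0 of 5 passed in limma (1 at an unadjusted p below 0.05, COL1A2 at -0.84 ± 0.28, adjusted p = 0.193). All 5 lay below 0, with a median of -0.33, and in single lines 5 of 5 were lower in H358, HCC827 and PC9. Of the 6 epithelial markers 0 passed and 0 had an unadjusted p below 0.05 (median 0.01, KRT7 at 0.38, adjusted p = 0.539). In such bulk samples a change in the share of cells and a change of RNA per cell cannot be told apart, and the part of these markers in the result was not tested. Against MiG, the smallest p of the marker lists was with IKKb that of CD74 (1.13 ± 0.44), COL1A2 (-0.85 ± 0.28) and KRT7 (0.36 ± 0.25), and with IkB_SR that of ITGAM (-1.51 ± 0.34), CDH5 (0.29 ± 0.29) and KRT19 (0.14 ± 0.12).

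In mouse LLC cells, IKKb was compared with MiG. The labels do not say whether the arrays of a vector came from separate cultures, so p-values measure the spread between these arrays. In limma 0 of 12549 genes passed, against 238 at an unadjusted p below 0.05 (1.90%, with 1.16% higher), among them Tapbp and Erap1, both higher. For 3 of the 8 genes, Tapbp, Erap1 and Psmb10, both IKKb arrays lay above both MiG arrays, as they did for 10.9% of all genes, and for 0 of the 8 they lay below, against 11.2% of all genes.

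Tapbp had signals of 3048 and 1757 on the IKKb arrays, against 1544 and 803 on the MiG arrays. The groups did not overlap, and the ratio was 1.97 for the arrays numbered 1 and 2.19 for those numbered 2, with a log2 fold change of 1.04 ± 0.37 (unadjusted p = 0.0280, adjusted p = 0.9997). A second, dimmer Tapbp probe set gave 0.74 ± 0.92. Erap1 had 417 and 417 on the IKKb arrays, against 258 and 272 on the MiG arrays (0.62 ± 0.21, unadjusted p = 0.0239, adjusted p = 0.9997), with ratios of 1.61 and 1.53 within a number. Its second probe set gave 0.77 ± 0.29. Psmb10 had 1004 and 1003 on the IKKb arrays, against 667 and 899 on the MiG arrays (0.37 ± 0.21, adjusted p = 0.9997), with ratios of 1.51 and 1.12.

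Tap2 and Tap1 lay below 0 in LLC and above 0 over the human lines, and for Tap2 both LLC numbers and all 5 human lines had these directions. Psmb9 also lay below 0 in LLC, at -0.17, but near background and with ratios of 1.48 and 0.375 within a number, so no direction can be read. Tap2 signals were 406 and 174 on the IKKb arrays, against 480.3 and 203 on the MiG arrays. The groups overlapped, because the arrays numbered 1 were brighter than those numbered 2 in both groups, while within a number IKKb stood at 0.846 and 0.859 of MiG. The log2 fold change was -0.22 ± 0.50 (adjusted p = 0.9997), with a 95% interval of -1.42 to 0.98. In the human lines the same contrast gave 0.20 to 0.52 in single lines and 0.31 ± 0.10 over the 5, with an interval of 0.09 to 0.53 that lies within the LLC interval. The difference between the species was not tested, since the arrays and probe sets differ.

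Tap1, the partner of Tap2, had 119.9 and 70.9 on the IKKb arrays, against 154 and 89.9 on the MiG arrays, and lay at 0.778 and 0.788 of MiG within a number (-0.31 ± 0.39, adjusted p = 0.9997). In the human lines TAP1 was above MiG with IKKb in 4 of 5. Psme1 had 2654 and 1719.6 on the IKKb arrays, against 2419 and 1736 on the MiG arrays, with a log2 fold change of 0.06 ± 0.27. Psmb8 and Psmb9 were at or near background in LLC, being above the 40th percentile on 2 of 4 arrays each. Psmb8 had 38.7 and 19.9 on the IKKb arrays, against 35.8 and 8.94 on the MiG arrays, and Psmb9 had 65.4 and 11.7 on the IKKb arrays, against 44.3 and 31.1 on the MiG arrays. At these levels a difference was not detectable.

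**Figure D5:**
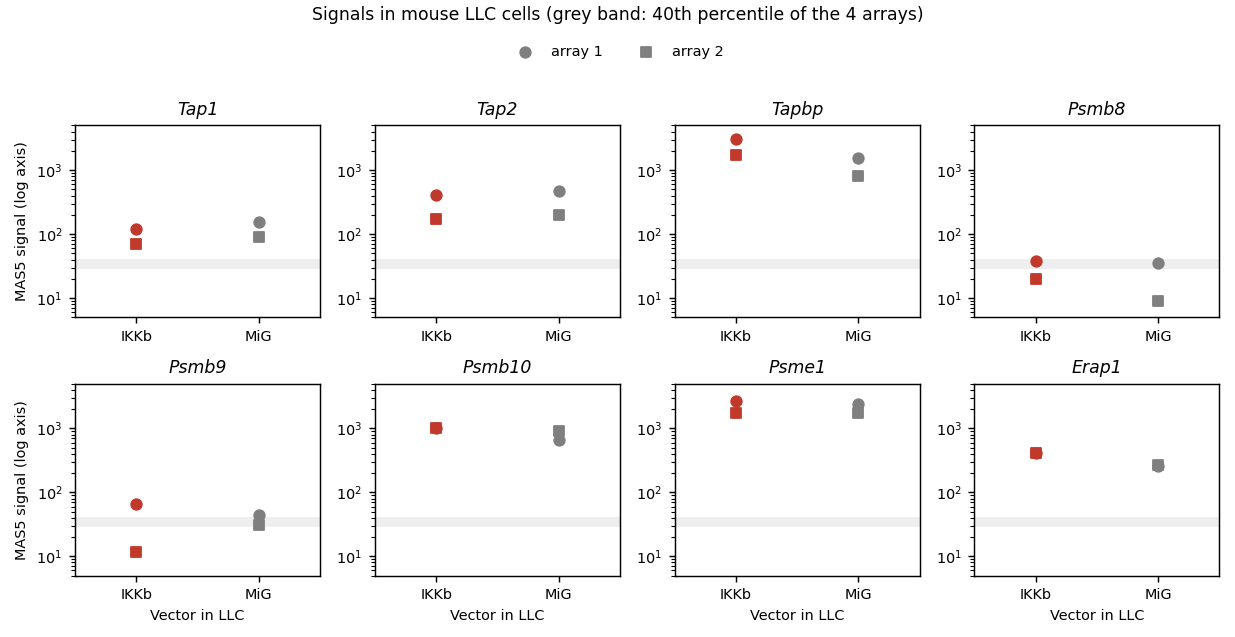
MAS5 signal on a log axis of the 8 mouse genes in LLC cells, IKKb on the left and MiG on the right of each panel, with circles for arrays numbered 1 and squares for arrays numbered 2. The grey band spans the 40th percentiles of the 4 arrays (30.1 to 39.6). Psmb8 and Psmb9 lie around it, between 8.94 and 65.4, and Tapbp, Psmb10 and Erap1 are the panels in which the groups do not overlap.

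The surrounding lists in LLC had 0 genes passing in limma. The constitutive 20S core had a median of -0.14, with 13 of 14 genes below 0 and 0 at an unadjusted p below 0.05. Its smallest p was that of Psmb3 (-0.36), and in the other lists that of Psmd4 (-0.19), Psmg4 (0.27), B2m (0.24) and Npepps (-0.10). Relb, at 1.85 ± 0.36 (adjusted p = 0.915), was 1 of 2 transcription factors with an unadjusted p below 0.05, and Gbp2, at 1.78 ± 0.46, was the 1 interferon-stimulated gene among 10 tested. Leukocyte markers summed to 863 to 889 with IKKb and 859 to 945 with MiG, most of it Cd14 (503 to 566 over the 4 arrays). Ptprc was above the 40th percentile on 0 of 4 arrays, but Cd14, Cd68 (87.6 to 146) and Cd74 (58.4 to 111) were above it on 4 of 4. The smallest p was that of Cd74, at 0.49 ± 0.33. Epithelial markers summed to 9462 to 9888 with IKKb and 12117 to 14523 with MiG, with Krt19, dim in LLC, at -1.52 ± 0.49. Fibroblast and endothelial markers summed to 10241 to 11513 with IKKb and 10867 to 20377 with MiG, most of it Col3a1 (9899 to 20078 over the 4 arrays), with Pdgfrb at 0.49 ± 0.29.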

How the data were processed

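Expression was measured on 15 human and 4 mouse single-colour Affymetrix arrays of lung cancer lines. The deposited intensity values are linear MAS5 signals of probe sets, computed by the authors with GCOS 1.4 and MAS5, per the submitters' processing notes. Each array was scaled to 500, the mean left after 2 percent is trimmed from each end. Such scaling removes any difference in total RNA, and signals near background are noisy. The number of arrays limits the precision.

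Of 54675 human probe sets 41097 name 1 gene, as do 34958 of 45101 mouse probe sets. Gene names came from the platform annotation, and updating them changed 0 symbols. Tests used log2(signal + 16) with no further normalisation, and the filter left 15212 human and 12549 mouse genes. limma 3.58.1 (lmFit, then eBayes with trend, two-sided tests, R 4.3.3) was fitted on all 15 human arrays, blocked by cell line, and on the 4 LLC arrays without a block. The block rests on the labels, since same-numbered human arrays come from the same line. Benjamini-Hochberg adjustment covered all genes of a comparison, with a threshold of 0.05. The fit was tested on simulated data. Python 3.11.15 with matplotlib 3.10.9 drew the figures.

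The 10 genes and the 10 other lists were chosen with earlier results of these data known. All 10 genes are named, and from each other list up to 3 genes per direction with the smallest p among those past the threshold, or the 1 gene with the smallest p where none passed. IRF1, the fourth of its list, and CD14, CD68, CD74, LCP1, PTPRC and the epithelial markers where levels are given were chosen after their values were seen. For TAP1 and PSMB9 the 5 most like genes are named. Alternatives were pseudocounts of 1 and 64, other filters, quantile normalisation, median centring, other summaries of probe sets, eBayes without a trend, other blocks, fewer vectors, and leaving out lines or arrays.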

Additional observations from a re-analysis of the deposited data

Results flagged for a closer look

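Each within-line difference between vectors (27 sets) and each level with a vector (27 sets) was examined for the 9 genes over the 5 human lines. A line stood out if its gap to the nearest other, divided by the range over the 5 lines, exceeded Dixon's 95% critical value of 0.71. Of these 54 sets 3 stood out, all of differences, about the number that chance gives (1 in 20, or 2.7 sets). For TAPBP, IKKb minus MiG was 0.97 on the log2 scale in H358, against 0.23 to 0.39 in the other lines. The H358 IKKb array is the one with a Dap signal above the other H358 arrays and the highest actin 3' to 5' ratio of the human arrays. The TAPBP log2 fold change of IKKb over MiG was 0.38 without that array, 0.30 without all H358 arrays and 0.44 with them. For ERAP2, IKKb minus MiG was 1.01 in H23, against 0.18 to 0.23 in the others, and the H23 MiG signal lay below the 40th percentile of its array. For PSMB10, IKKb minus MiG was -0.19 in H23, against 0.08 to 0.17 in the others.

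Tap2 in LLC lay at -0.22 with IKKb against MiG, with -0.23 and -0.20 for the arrays numbered 1 and 2, while TAP2 lay at 0.20 to 0.52 in the 5 human lines. All human lines moved one way and both LLC numbers the other. The difference was not tested.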

How the results depend on the processing

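Between IKKb and IkB_SR, 142 genes and 6 of the 9 antigen-processing genes passed. The counts were 86 genes with no filter, 44 genes and 3 of the 9 (TAP2, TAPBP and PSMB9) when a gene's probe sets were averaged, 21 and 2 without an intensity trend, 15 and 2 when the fit held only the compared vectors, and 24 to 129 and 2 to 7 with 1 line left out. Without the replicate block for line, 0 genes and 0 of the 9 passed in limma, with 87 genes and 0 of the 9 at an unadjusted p below 0.05, because the spread between lines then enters the error. TAP2 and TAPBP passed under every alternative except the fit without the block. PSMB8 passed with a filter at the 60th percentile (adjusted p = 0.0497) and with median centring (adjusted p = 0.0484), and TAP1 did not pass with the mean of the probe sets (adjusted p = 0.0547). For IKKb against MiG the count of 0 became 1 gene with the mean of the probe sets and 2 with every probe set tested separately. For IkB_SR against MiG it became 1 gene with the compared vectors only and 0 to 8 genes, with 0 to 2 of the 9, when 1 line was left out. PSMB10 changed sign with lines left out, between -0.056 and 0.12 for IKKb against IkB_SR and between -0.040 and 0.091 for IkB_SR against MiG.

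In LLC the replicate number as a block gave 223 genes and 2 of the 8, Tapbp (adjusted p = 3.79e-08) and Erap1 (adjusted p = 0.0423). The meaning of the numbers is not given, and the deviations of same-numbered arrays correlated at 0.530 over 12549 genes, a single value. A pseudocount of 64 gave 2 genes. With 1 array left out, the lone array of a vector being assumed to vary like the others, 5 to 138 genes and 0 to 1 of the 8 passed (Tapbp at 1.51 without the MiG array numbered 1). The log2 fold change then changed sign for Tap1 (-0.65 to 0.037), Tap2 (-0.81 to 0.37), Psmb8 (-0.22 to 0.83), Psmb9 (-0.95 to 0.61) and Psme1 (-0.25 to 0.37). The cause was not tested. Dim signals limit Psmb8 and Psmb9 in LLC and ERAP2 in H23.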
